A study of Mus musculus with 12 samples.

Results

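The R-spondin genes Rspo1, Rspo2, Rspo3 and Rspo4 and the receptor genes Lgr4, Lgr5 and Lgr6 were described in fetal mouse lungs. These 7 members were taken by gene symbol from the 47069 genes of the deposited count table. Whole lungs had been collected at embryonic day 15.5 (E15.5) from C57BL/6 animals, 3 of them mesenchymal Tgfbr2 conditional knockouts (CKO) and 3 wild type (WT). CKO replicates 1 and 2 are labelled Tgfbr2lox/flox/Tbx4-rtTA/Teto-Cre and CKO replicate 3 is labelled Tgfbr2flox/flox/Tbx4-rtTA/Teto-Cre, while the WT lungs carry no allele in their label. The labels give all 6 lungs the same doxycycline protocol, 1 mg/ml in water and also in food, starting at E6.5 and ending at E15.5. By design, Cre in the CKO animals depends on doxycycline and on a Tbx4-driven rtTA meant to act in the lung mesenchyme and not in other cell types. Which cells lost Tgfbr2 cannot be read from these data. Whether littermates are among the animals is not stated, so the p-values cover the spread among these 6 lungs and may include technical spread.

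R-spondins are secreted proteins that bind LGR4, LGR5 or LGR6 together with the membrane ubiquitin ligases ZNRF3 or RNF43. These ligases remove Frizzled and LRP receptors from the cell surface, and R-spondin binding clears the ligases instead, which leaves more receptor for WNT ligands and strengthens beta-catenin signalling. In mice, Rspo2 is needed for normal lung branching and airway cartilage, and in the adult mouse lung Lgr6-expressing mesenchyme surrounds airways while Lgr5-expressing mesenchyme lies in alveoli.

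Rspo4 was higher and Lgr5 lower in the CKO lungs. Lgr6 was as abundant in CKO replicate 1 as in the lowest WT lung and far lower in CKO replicates 2 and 3, and its difference over all 6 lungs did not pass the test. Rspo1, Rspo2, Rspo3 and Lgr4 did not pass either. By the quasi-likelihood test of edgeR, with calls at an adjusted p under 0.05 among 17843 genes, 1 of the 7 members was called higher and 1 lower in CKO lungs. Of all genes tested, 5.64% were called higher, 3.08% lower and 8.71% in either direction, and calls of at least a 2-fold difference were made for 1.67% (higher) and 0.897% (lower). The ranges of the groups did not overlap for Rspo4 and Lgr5, 2 of the 7 members, and for 29.9% of all genes tested (15.5% with CKO higher and 14.4% with CKO lower). The median log2 fold change was -0.17 over the 7 members and -0.0046 over all genes tested.

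The libraries differed in ways that touch these results. Gene counts summed to between 31983717 and 51572845 per lung, and each of the 7 members was above the low-count filter, at 0.244 CPM (counts scaled to the effective library size), in all 6 lungs. On principal component 1, with 54.1% of the variance, CKO replicates 2 and 3 lay at 45.3 and 50.8, the WT lungs at -34.4 to -28.1, and CKO replicate 1 at -2.41, between them. Xist had 100817 counts in CKO replicate 1 and 61807 in WT replicate 1, against 22 to 41 in the other lungs, and the Y-linked genes had 2 and 1 counts in these 2 lungs. By these counts each group held 1 female lung, its replicate 1, and 2 male lungs. Reads outside annotated features (the no-feature share) were 17% of unique reads in CKO replicate 1 and 11.8% and 12.8% in CKO replicates 2 and 3. In WT lungs they were 14.5% to 16.1%. Tgfbr2 itself had 213, 221 and 239 CPM in CKO lungs, against 199.7, 203 and 230.0 CPM in WT lungs (log2 fold change 0.09 ± 0.07 SE, edgeR adjusted p = 0.453). Its count covers the whole gene in all cells of the lung and checks nothing about the deletion. Defining lung markers were present in every library: Nkx2-1, of lung epithelium, had 316 to 330 CPM in CKO and 259.6 to 333 CPM in WT lungs, and Tbx4, of lung mesenchyme, had 225 to 247 CPM in CKO and 232 to 261 CPM in WT lungs.

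Promoter sequence was matched in RefSeq (GRCm38.p6) for Rspo1, Rspo4, Lgr4 and Lgr6, 4 of the 7 genes. The 250 bases before the start are shown for Rspo4, the ligand gene that was called, and for Lgr6, the receptor gene whose level split the CKO lungs. They are written 5′ to 3′ on the strand of the gene, chr2:151842677-151842926 on the plus strand for Rspo4 and chr1:135105277-135105526 on the minus strand for Lgr6, and capitals mark a match to the SMAD box.
Rspo4: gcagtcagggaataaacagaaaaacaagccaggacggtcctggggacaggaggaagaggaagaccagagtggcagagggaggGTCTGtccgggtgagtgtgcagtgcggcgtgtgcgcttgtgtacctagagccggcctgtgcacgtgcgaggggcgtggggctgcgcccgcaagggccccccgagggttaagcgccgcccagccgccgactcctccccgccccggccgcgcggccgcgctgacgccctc
Lgr6: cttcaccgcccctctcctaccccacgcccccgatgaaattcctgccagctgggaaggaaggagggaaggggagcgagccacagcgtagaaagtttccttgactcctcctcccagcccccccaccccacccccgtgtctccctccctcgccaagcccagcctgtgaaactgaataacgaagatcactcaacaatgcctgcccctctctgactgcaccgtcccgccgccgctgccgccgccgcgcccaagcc
The motifs searched, on both strands, were the TCF/LEF core CTTTGA, the SMAD box CAGAC and the SMAD palindrome GTCTAGAC, which does not contain the box. The Rspo4 window held 1 box, read there as GTCTG, beginning at position -168 from the start. The Rspo1 window also held 1, at -118, and the windows of Lgr4 and Lgr6 held no match to any of the motifs. Of 32851 promoter windows of this length 42.2% held the box, 13.8% the TCF/LEF core and 0.167% the palindrome. The Rspo4 window was 69.6% G and C with 24 CpG dinucleotides and the Lgr6 window 65.2% with 16, where the medians over all windows were 52.4% and 6. A match describes these letters and is not evidence of binding.

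Per length, Rspo1 was the most abundant of the 7 genes in both groups, and the lowest was Lgr5 in CKO lungs and Rspo4 in WT lungs. On the RPKM scale (scaled counts per length of the merged exons), the CKO means were 9.41 for Rspo1, 3.14 for Rspo2, 2.74 for Lgr4, 1.50 for Lgr6, 0.635 for Rspo4, 0.573 for Rspo3 and 0.108 for Lgr5. The WT means were 7.92 for Rspo1, 4.70 for Lgr6, 3.54 for Rspo2, 2.60 for Lgr4, 0.743 for Rspo3, 0.466 for Lgr5 and 0.179 for Rspo4. Among neighbours in this order, the ranges over lungs were apart in CKO lungs only between Rspo1 and Rspo2 and between Rspo3 and Lgr5. In WT lungs they overlapped between Lgr6 and Rspo2 and between Rspo2 and Lgr4, and the other neighbours were apart. The order depended on the gene length used: in the RPKM deposited by the authors, WT Rspo2 (5.39) was above WT Lgr6 (3.23), and CKO Rspo3 (0.748) above CKO Rspo4 (0.623). There the WT ranges of Rspo1 and Rspo2 overlapped. The deposited lengths were 1.95, 1.88 and 1.44 times the merged exons for Lgr4, Lgr5 and Lgr6, and 0.651 times for Rspo2.

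**Figure D1:**
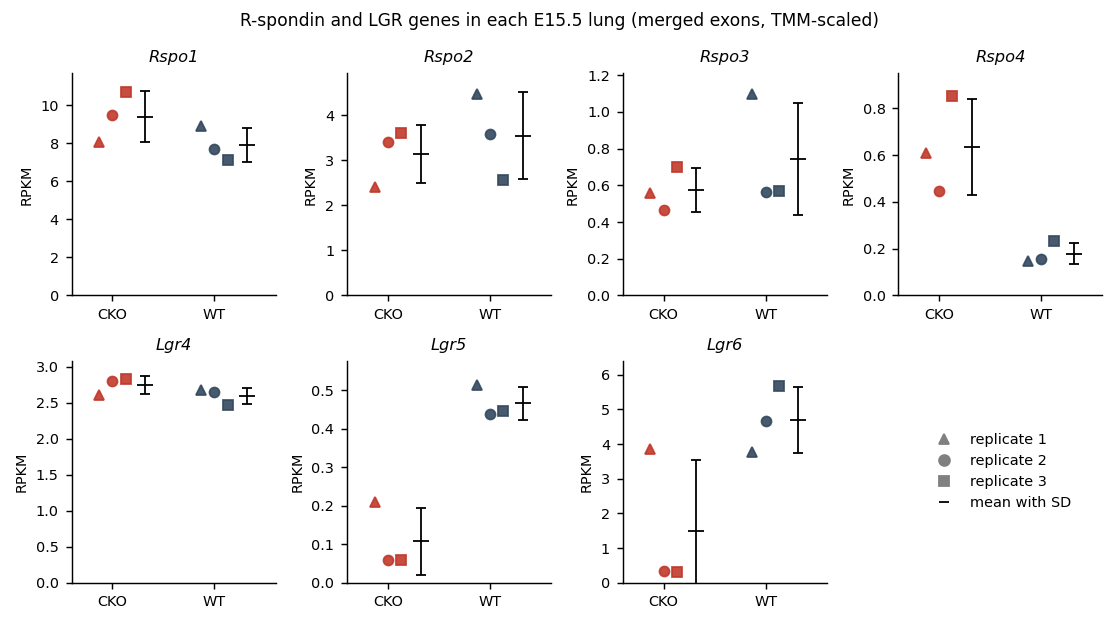
Level of each R-spondin and LGR gene in each lung, in RPKM on a linear axis from 0, with CKO left of WT, marker shapes for the replicate number, and the group mean with its SD (n = 3; the bar for Lgr6 in CKO lungs runs below 0 and is cut at the axis). The CKO and WT points of Rspo4 and of Lgr5 are apart, and CKO replicate 1 of Lgr6, at 3.85 RPKM, stands with the WT lungs.

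Among the ligand genes, Rspo4 changed most. Rspo4 (ENSMUSG00000032852, chromosome 2, 151842927 to 151874668, plus strand, GRCm38) encodes the R-spondin known from human nail development. It had 1.44, 1.05 and 2.02 CPM in CKO replicates 1 to 3, against 0.352, 0.370 and 0.551 CPM in WT replicates 1 to 3. All 3 CKO lungs were above all 3 WT lungs, at 340%, 248% and 476% of the WT mean. The means were 1.51 ± 0.486 CPM in CKO and 0.424 ± 0.110 CPM in WT lungs (SD, n = 3 each). The difference was 3.51-fold (log2 fold change 1.81 ± 0.32 SE, 95% confidence interval 1.08 to 2.55, edgeR adjusted p = 0.0174). These values rest on few reads, 58, 39 and 85 counts in CKO and 11, 19 and 25 counts in WT lungs. Both sequencing runs showed the same separation, with 14, 11 and 19 counts in CKO and 1, 6 and 5 in WT lungs in the shallower run, and 44, 28 and 66 in CKO and 10, 13 and 20 in WT lungs in the deeper one. In whole lung RNA, fewer cells of a type and less RNA per cell cannot be told apart, here and in the results that follow. The call was lost without CKO replicate 3 (adjusted p = 0.0535), WT replicate 1 (0.0721) or WT replicate 2 (0.0910), with log2 fold changes of 1.55 to 2.06 over all leave-one-out fits. The authors' deposited table gives Rspo4 a log2 fold change of 1.82 (KO over WT) with an edgeR adjusted p of 2.25e-10. How the 2 runs of a lung entered the authors' fit is not stated in the sources used. Their adjusted p, here and for Lgr5 and Lgr6 below, may therefore not be comparable with those of the fit over summed runs.

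Rspo1 (ENSMUSG00000028871, chromosome 4, 124986430 to 125009099, plus strand), known in mice for its part in ovary determination, was the main R-spondin transcript of these lungs per length. It had 15.6, 18.4 and 20.8 CPM in CKO lungs, against 17.2, 15.0 and 13.8 CPM in WT lungs. The groups overlapped through CKO replicate 1, which lay below WT replicate 1. Its log2 fold change over all 6 lungs was 0.25 ± 0.13 SE (95% confidence interval -0.04 to 0.54, edgeR adjusted p = 0.255), so a rise of up to 1.46-fold lies within the interval. Without CKO replicate 1 it was 0.37 (adjusted p = 0.0626), and over replicates 2 and 3 of both groups, all male, it was 0.44 and passed (adjusted p = 0.0324). In that fit 13.4% of 18081 genes were called, 7.54% higher and 5.81% lower.

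Rspo2 (ENSMUSG00000051920, chromosome 15, 43020794 to 43170826, minus strand), the R-spondin needed for mouse lung branching, showed no separation of the groups. It had 12.4, 17.4 and 18.4 CPM in CKO lungs, against 22.9, 18.4 and 13.1 CPM in WT lungs. The log2 fold change was -0.17 ± 0.22 SE (95% confidence interval -0.67 to 0.33, edgeR adjusted p = 0.683). Its direction turned with replicate 1: it was 0.0014 with CKO replicate 1 left out, 0.03 with WT replicate 1 left out and 0.19 over replicates 2 and 3 alone.

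Rspo3 (ENSMUSG00000019880, chromosome 10, 29452416 to 29535867, minus strand), known in mice for a role in placental and vascular development, was low beside Rspo1. It had 1.72, 1.43 and 2.16 CPM in CKO lungs, against 3.39, 1.73 and 1.76 CPM in WT lungs, from 53 to 91 counts in CKO and 80 to 106 counts in WT lungs. WT replicate 1 was the single high lung, and the other 5 lay between 1.43 and 2.16 CPM. The log2 fold change was -0.36 ± 0.30 SE (95% confidence interval -1.06 to 0.35, edgeR adjusted p = 0.516), and it was 0.02 without WT replicate 1. The interval does not show that Rspo3 was alike in the groups.

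The make-up of the ligand family per length was led by Rspo1 in every lung. Rspo1 took 69.2%, 68.8% and 67.5% of the summed R-spondin RPKM in CKO lungs, against 60.9%, 64.2% and 68.0% in WT lungs. The share of Rspo4 was 5.23%, 3.22% and 5.37% in CKO lungs, against 1.02%, 1.30% and 2.22% in WT lungs, so every CKO lung was above every WT lung while Rspo4 remained a small part of the family. The summed R-spondin level was 11.6, 13.8 and 15.9 RPKM in CKO lungs and 14.6, 12.0 and 10.5 RPKM in WT lungs, and the groups overlapped. In the deposited RPKM Rspo1 also led in every lung, by least in WT replicate 1 (48.3% beside 42.1% for Rspo2).

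**Figure D2:**
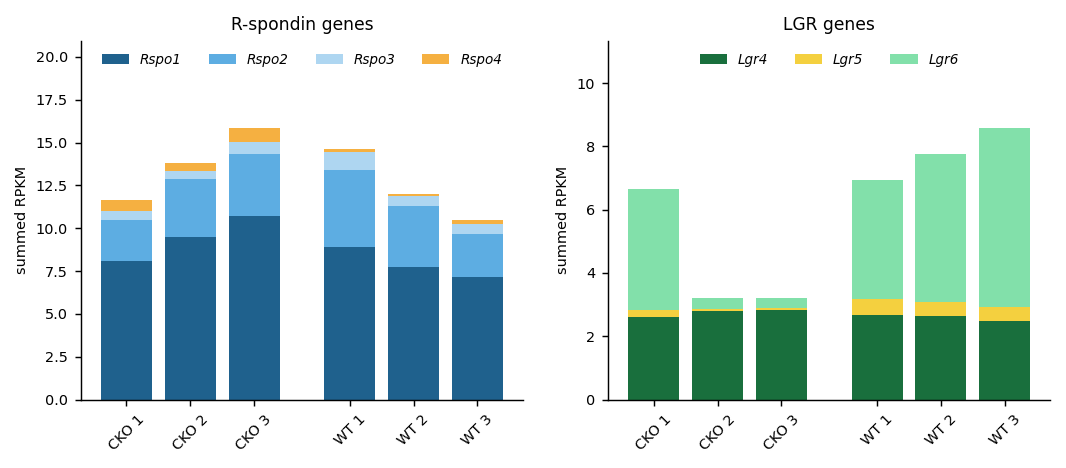
Summed RPKM of the R-spondin genes (left) and the LGR genes (right) in each lung, CKO lungs left of WT lungs, stacked by gene on linear axes from 0. The R-spondin sums overlap between groups, while the LGR sum is 3.20 RPKM in CKO replicates 2 and 3 and between 6.66 and 8.59 RPKM in the other 4 lungs, mostly through the Lgr6 layer.

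Among the receptor genes, Lgr5 was called. Lgr5 (ENSMUSG00000020140, chromosome 10, 115450311 to 115587780, minus strand) is best known as a marker of intestinal stem cells and is itself a WNT target gene. It had 2.14, 0.594 and 0.594 CPM in CKO replicates 1 to 3, against 5.28, 4.50 and 4.56 CPM in WT replicates 1 to 3. All 3 CKO lungs were below all 3 WT lungs, at 44.8%, 12.4% and 12.4% of the WT mean, so CKO replicate 1 lay between the other CKO lungs and the WT lungs. The means were 1.11 ± 0.894 CPM in CKO and 4.78 ± 0.434 CPM in WT lungs (SD, n = 3 each), from 86, 22 and 25 counts in CKO and 165, 231 and 207 counts in WT lungs. Lgr5 was 4.28-fold lower in CKO lungs (log2 fold change -2.10 ± 0.46 SE, 95% confidence interval -3.15 to -1.05, edgeR adjusted p = 0.0319). Without CKO replicate 1 it was 7.94-fold lower (adjusted p = 7.81e-05). The call was lost without CKO replicate 2 (adjusted p = 0.119), CKO replicate 3 (0.0923), WT replicate 1 (0.105) or WT replicate 2 (0.108), with log2 fold changes of -2.99 to -1.78 over all leave-one-out fits. The authors' deposited table gives Lgr5 a log2 fold change of -2.15 (KO over WT) with an adjusted p of 2.39e-06.

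Lgr6 (ENSMUSG00000042793, chromosome 1, 134983301 to 135105276, minus strand), known in mice as a marker of skin and hair follicle stem cells, split the CKO lungs. It had 26.3, 2.32 and 2.18 CPM in CKO replicates 1 to 3, against 25.8, 31.9 and 38.9 CPM in WT replicates 1 to 3. CKO replicate 1 lay within the WT range, at 81.8% of the WT mean, and CKO replicates 2 and 3 were at 7.21% and 6.78%. The counts were 1058, 86 and 92 in CKO lungs and 806, 1640 and 1764 in WT lungs. The CKO mean of 10.3 ± 13.9 CPM (SD, n = 3) describes no single CKO lung, beside 32.2 ± 6.56 CPM in WT lungs (SD, n = 3). Over all 6 lungs the log2 fold change was -1.65 ± 0.83 SE (95% confidence interval -3.58 to 0.28, edgeR adjusted p = 0.264). Without CKO replicate 1 Lgr6 was 14.2-fold lower (log2 fold change -3.83, adjusted p = 3.19e-05), and over the male replicates 2 and 3 of both groups the log2 fold change was -3.97 (adjusted p = 2.30e-05). With 1 female CKO lung, sex and any other difference of CKO replicate 1 cannot be told apart. The authors' deposited table gives Lgr6 a log2 fold change of -1.94 (KO over WT) with an adjusted p of 0.0373, on the other side of the threshold from the fit over summed runs. Without CKO replicate 1, 1 member was called higher and 2 lower, where 15.9% of 18207 genes were called, 9.41% higher and 6.51% lower.

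Lgr4 (ENSMUSG00000050199, chromosome 2, 109917647 to 110014257, plus strand), the broadly expressed receptor of the family, was the steadiest member. It had 15.3, 16.5 and 16.6 CPM in CKO lungs, against 15.7, 15.6 and 14.5 CPM in WT lungs. The groups overlapped, and the log2 fold change was 0.08 ± 0.08 SE (95% confidence interval -0.09 to 0.25, edgeR adjusted p = 0.562). The interval leaves out a rise above 1.19-fold.

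**Figure D3:**
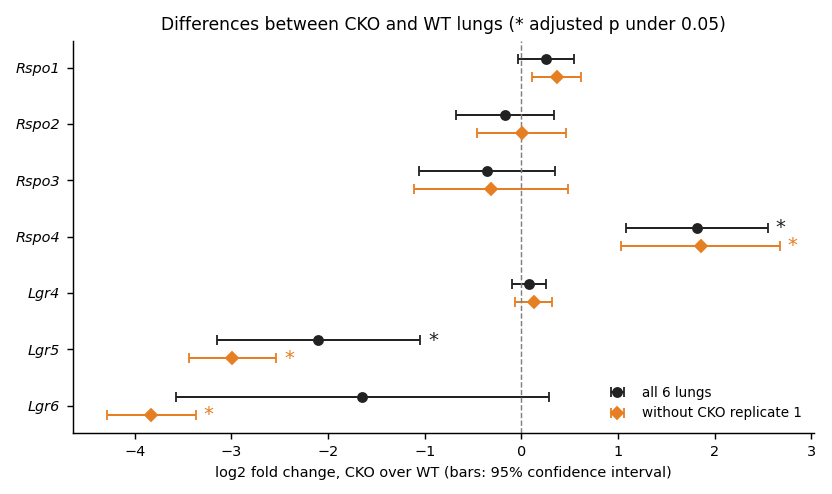
Log2 fold change of each member, CKO over WT, with its 95% confidence interval, over all 6 lungs (black circles) and without CKO replicate 1 (orange diamonds); asterisks mark an adjusted p under 0.05. Rspo4 and Lgr5 pass in both fits, and Lgr6 passes in the second, where its value is -3.83.

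The LGR make-up of the lungs followed these values. The summed LGR level was 6.66, 3.20 and 3.20 RPKM in CKO lungs, against 6.95, 7.75 and 8.59 RPKM in WT lungs. Lgr6 took 57.7%, 10.6% and 9.97% of it in CKO lungs, against 54.2%, 60.1% and 66.1% in WT lungs. Lgr4 took 39.1%, 87.6% and 88.2% in CKO lungs, against 38.4%, 34.2% and 28.7% in WT lungs, so it was the leading LGR transcript in CKO replicates 2 and 3 and Lgr6 in the other 4 lungs. Lgr5 took 3.13%, 1.81% and 1.81% in CKO lungs and 7.40%, 5.65% and 5.18% in WT lungs.

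Little sequence was shared between members or with overlapping genes. The longest stretch of identical bases between transcripts of 2 different members was 37 bases, between Rspo1 and Lgr5, and 11 to 18 bases for the other pairs. Only Rspo3 had an annotated gene overlapping its exons, Gm48159, which had 0 counts in all lungs. The antisense gene Rspo4os lies within the span of Rspo4 without exon overlap and had 16 counts over all 6 lungs, beside 237 for Rspo4.

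Markers of several cell types differed between the groups, some lower and some higher in CKO lungs. For proximal airway epithelium, 2 of 5 tested markers were called lower and 0 higher (Cyp2f2, adjusted p = 0.0412, and Krt15, adjusted p = 0.0424), and the summed level of the list was 46.2, 5.48 and 8.34 CPM in CKO lungs, against 96.6, 77.2 and 137 CPM in WT lungs. For smooth muscle, 2 of 6 were called lower (Acta2 and Myh11) and 1 higher (Des), and the sum was 820, 482 and 474 CPM in CKO lungs, against 1129, 1180 and 1101 CPM in WT lungs. For cartilage, 1 of 3 tested markers was called lower (Sox9, which distal tip epithelium also expresses), with sums of 132, 108 and 91.0 CPM in CKO lungs and 132, 146 and 129 CPM in WT lungs. Without CKO replicate 1, 5 of 5 airway, 5 of 6 smooth muscle and 3 of 3 cartilage markers were called lower. In that fit 6.51% of all genes were called lower and 9.41% higher, against 3.08% and 5.64% over all 6 lungs. The cartilage marker Acan was near the floor, at 0.299, 0.0 and 0.0237 CPM in CKO lungs and 0.331 to 0.409 CPM in WT lungs. In both the airway and the smooth muscle sums CKO replicate 1 lay between the other CKO lungs and the WT lungs, as it did for Lgr5, and no marker of these lists was at 0 in all lungs. Markers higher in CKO lungs included 5 of 6 for endothelium, 4 of 5 for myeloid and other immune cells, 2 of 5 for red blood cells and 1 of 5 for mesothelium, whose sums were 108 to 125 CPM in CKO and 79.0 to 88.8 CPM in WT lungs. Most of the mesothelium sum was the called gene Upk3b, at 72.4 to 89.4 CPM in CKO and 49.0 to 53.0 CPM in WT lungs. Without a call, Wt1 and Lrrn4 leaned higher, Msln was 1.80-fold lower and Upk1b had a log2 fold change of -0.01. Of distal tip epithelium 3 of 7 markers were lower, of lung mesenchyme 3 of 7 were lower and 1 higher, of neurons and Schwann cells 1 of 5 was lower and of skeletal muscle 1 of 4 was higher (Pax7). The summed level of that list was 35.2, 16.5 and 22.2 CPM in CKO lungs, against 49.5, 46.9 and 50.1 CPM in WT lungs, with CKO replicate 1 between the rest, and 2 of its 4 markers were called lower without CKO replicate 1. Most of this sum was the single gene Actc1, at 32.7, 9.61 and 15.0 CPM in CKO lungs and 45.3 to 48.7 CPM in WT lungs. The part of these cell types in the values of Lgr5, Lgr6 and Rspo4 was not tested.

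**Figure D4:**
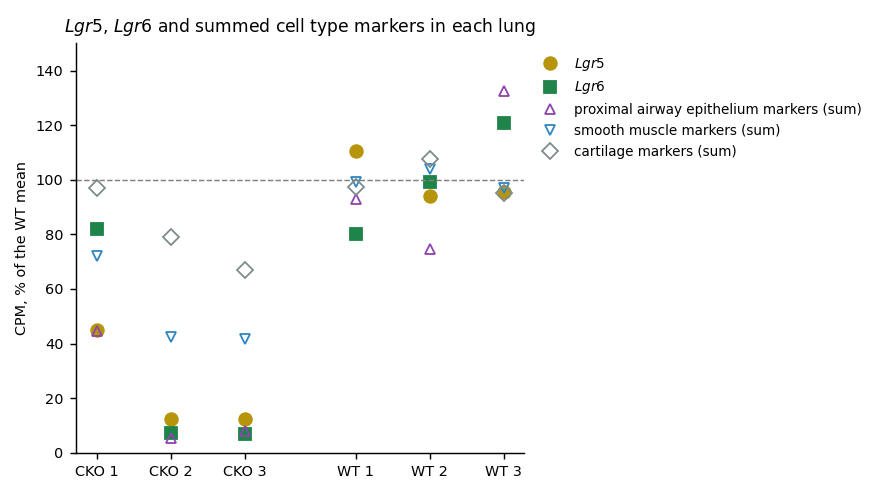
Lgr5 and Lgr6 (filled) and the summed markers of proximal airway epithelium, smooth muscle and cartilage (open) in each lung, as a percent of the WT mean in CPM, CKO lungs left of WT lungs. In CKO replicates 2 and 3 Lgr5 and Lgr6 lie between 6.78% and 12.4%, the airway sum at 5.29% and 8.04% and the smooth muscle sum at 42.4% and 41.7%, while CKO replicate 1 is higher for each. The other lists are not drawn. Their sums were higher in every CKO lung than in every WT lung for endothelium, mesothelium, immune cells and red blood cells. They were lower in every CKO lung for distal tip epithelium, neurons and Schwann cells, and skeletal muscle. The skeletal muscle sum was at 72.1%, 33.7% and 45.6% in CKO replicates 1 to 3.

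The genes whose pattern over the 6 lungs was most like that of a member were named by the Pearson correlation of log2 CPM, as a description over lungs that share their libraries. For Lgr5 they were Megf10 (r = 0.999), Havcr1 (0.998) and Smpx (0.998). Smpx, a small protein of striated muscle, had 8.99, 1.73 and 1.50 CPM in CKO lungs, against 22.2, 20.2 and 20.6 CPM in WT lungs, with CKO replicate 1 between the rest as for Lgr5. For Lgr6 they were Nog (0.999), Col11a2 (0.998) and Plce1 (0.998). Nog, which encodes the BMP antagonist noggin, had 5.30, 2.89 and 2.83 CPM in CKO lungs, against 5.47, 5.72 and 5.95 CPM in WT lungs, so CKO replicate 1 again stood with the WT lungs, over a smaller range than Lgr6. For Rspo4 they were Nin (0.996), Adgrl2 (0.995) and Adgrl3 (0.989), whose log2 fold changes were far smaller than that of Rspo4, at 0.22, 0.15 and 0.36. For Rspo1 they were Slc25a39, Sap30l and Lrig3 (0.986 to 0.990), for Rspo2 Ssbp3, Tubb2b and Fam32a (0.985 to 0.996), for Rspo3 Rnf10, Zswim7 and Gatad2a (0.954 to 0.981), and for Lgr4 Rab37, Nudt9 and Crlf3 (0.989 to 0.994). Between members, the highest value was 0.956, for Lgr5 and Lgr6.

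Genes for the partners of R-spondins and LGRs at the membrane were examined next. Neither of the ubiquitin ligase genes was called by edgeR, and DESeq2 called 1 lower, where it called 984 of 18561 genes lower. Znrf3, itself raised by beta-catenin signalling, had 38.3, 31.6 and 35.2 CPM in CKO lungs, against 39.8, 44.0 and 45.1 CPM in WT lungs (log2 fold change -0.30 ± 0.09 SE, edgeR adjusted p = 0.0720), and passed without CKO replicate 1 (adjusted p = 0.0203). In that fit 6.51% of 18207 genes were called lower. The Znrf3 ranges over all 6 lungs did not overlap, which held with CKO lower for 14.4% of all genes tested. Rnf43 had a log2 fold change of 0.11 (edgeR adjusted p = 0.380). Of 15 tested WNT receptors and co-receptors, 0 were called higher and 3 lower, with a median log2 fold change of -0.04. The genes called were Fzd10 (1.74-fold lower, edgeR adjusted p = 0.0127), Fzd1 (1.23-fold lower, adjusted p = 0.0106) and Fzd2 (1.14-fold lower, adjusted p = 0.0344). All 3 encode Frizzled receptors, as do most genes of this list, and the other Frizzled genes went in both directions without a call. For this list and the next, the shares over all genes tested were 5.64% called higher and 3.08% lower. Fzd10 was at 3.79, 4.43 and 3.56 CPM in CKO lungs, against 6.78, 7.34 and 6.39 CPM in WT lungs. Of 8 proteoglycans, which in cell culture can stand in for LGRs in binding some R-spondins, 1 was called lower, Sdc2 (1.28-fold, adjusted p = 0.0326), 0 higher, and the median was -0.01. Of the 6 leave-one-out fits, Fzd1 passed in 4, Fzd10 and Sdc2 in 3 and Fzd2 in 1. Of the glycoprotein hormone and relaxin receptors, relatives of the LGRs, 3 of 5 were tested and 0 were called, with 0 at an unadjusted p under 0.05 and 0 called by DESeq2 or limma-voom; their summed level was 0.918 to 1.57 CPM in CKO and 1.28 to 2.05 CPM in WT lungs.

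Among WNT ligands 10 of 19 genes were tested, 2 were called higher and 1 lower, and the median log2 fold change was -0.02. Over all genes tested, 5.64% were called higher and 3.08% lower, and the median was -0.0046. Wnt7a, an epithelial ligand, had 5.35, 7.94 and 9.45 CPM in CKO lungs, against 2.43, 1.81 and 3.20 CPM in WT lungs (3.06-fold higher, edgeR adjusted p = 0.0143). Wnt2b was 1.92-fold higher (adjusted p = 0.0109) and Wnt2, its partner in mouse lung specification, 1.51-fold lower (adjusted p = 0.00386). Wnt2 passed in all 6 leave-one-out fits, Wnt2b in 5 and Wnt7a in 3. Wnt8a and Wnt8b had 0 counts in all 6 lungs.

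Of 12 beta-catenin response genes, 2 were called higher and 7 lower, and their median log2 fold change was -0.47, beside -0.0046 over all genes tested. Among all genes tested 5.64% were called higher and 3.08% lower. The list was chosen with earlier results of these data known, so the comparison is a description and not a test of the list. Those lower included Axin2, a feedback inhibitor of the pathway, with 58.6, 54.6 and 52.6 CPM in CKO lungs, against 70.0, 74.5 and 70.8 CPM in WT lungs (1.30-fold, edgeR adjusted p = 0.0107). Tcf7, a transcription factor that binds beta-catenin, was 1.48-fold lower (adjusted p = 0.00878) and Tnfrsf19 1.59-fold lower (adjusted p = 0.00972). The others called lower were Sp5 (4.51-fold), Ascl2 (2.28-fold), Lef1 (1.81-fold) and Notum (1.68-fold), with adjusted p of 0.0243 to 0.0367. Sp5 resembled Lgr5 in its values, with 4.13, 2.0 and 0.902 CPM in CKO lungs, against 10.4, 9.87 and 11.5 CPM in WT lungs. Apcdd1, an inhibitor of WNT signalling, was 1.69-fold higher (adjusted p = 0.00319) and Bmp4, which also responds to other signals, 1.96-fold higher (adjusted p = 0.0189). Without CKO replicate 1 the counts were again 2 higher and 7 lower, but leaving out WT replicate 2, CKO replicate 2 or WT replicate 1 left 0, 1 or 3 called lower. Calls lower over all genes also fell in these fits, from 549 to 90, 90 and 130. They rose to 1185 without CKO replicate 1. Of the 6 leave-one-out fits, Apcdd1 passed in 6, Tcf7 in 5, Axin2 and Tnfrsf19 in 4, Sp5, Lef1 and Bmp4 in 3, Ascl2 in 2 and Notum in 1. Of 14 core genes of the beta-catenin pathway, such as Ctnnb1, Apc and Gsk3b, 0 were called by edgeR, 2 had an unadjusted p under 0.05 (Apc and Gsk3a) DESeq2 called 1 and limma-voom 0, and the median was -0.02.

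**Figure D5:**
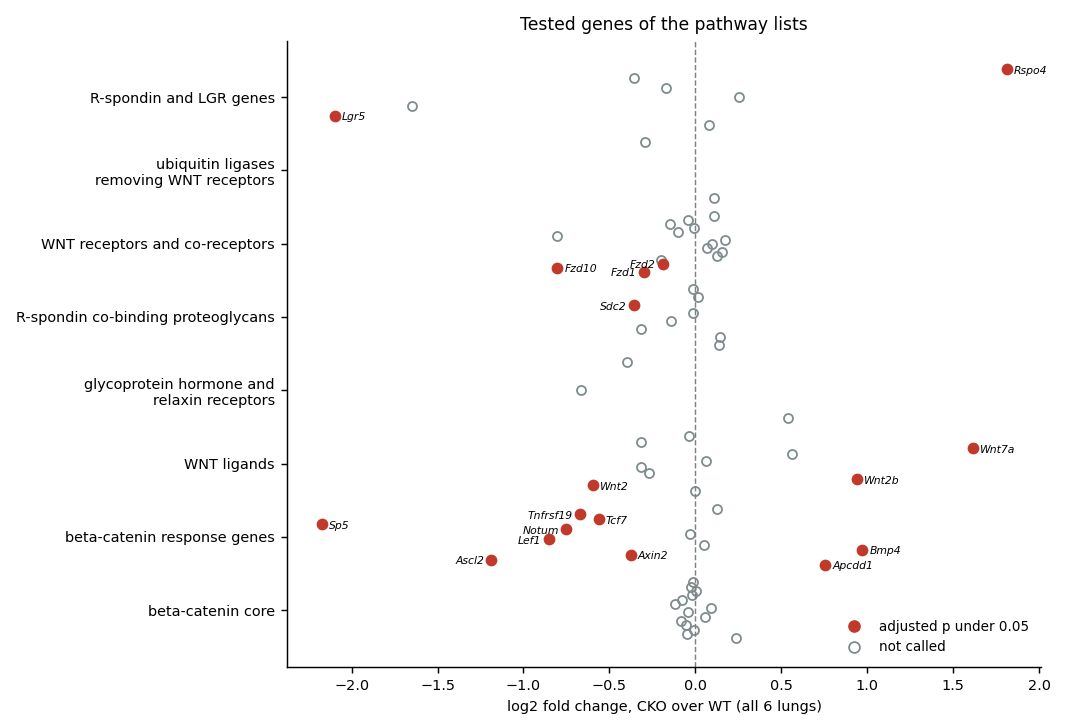
Log2 fold change, CKO over WT over all 6 lungs, of each tested gene of the R-spondin and LGR genes and of the other pathway lists, with genes at an adjusted p under 0.05 filled and named (the vertical spread within a list only separates points). Beta-catenin response genes hold 7 of the genes called lower, while core genes lie near 0.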

How the data were processed

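RNA was sequenced in 6 mouse lungs, each in 2 runs that share 1 replicate label. Per the submitters' processing notes, the tools were cutadapt 1.13, Trimmomatic 0.35, STAR 2.5.2b and HTSeq 0.6.1p2 on GRCm38; the file headers name GENCODE M8. Use of strand is not stated in the sources used. The deposited table holds raw counts per gene and run, and the authors' RPKM beside them. A deposited comparison table holds the authors' log2 fold changes, p-values and adjusted p-values (edgeR 3.16.5), and its 24 columns of per-sample values were not used.

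The 2 runs of a lung were summed, and 92 spike-ins were left out. Counts were tested with edgeR 4.0.16 in R 4.3.3 (quasi-likelihood F test, low counts removed by filterByExpr at 10, TMM scaling, group as the single factor, Benjamini-Hochberg adjustment over 17843 genes, calls at an adjusted p under 0.05). Levels per length used the merged exons of GENCODE M21, on the same assembly, to which 98.8% of genes matched. Both the 3 lungs per group and, for the members with few counts, depth limit precision. DESeq2 1.42.0 and limma 3.58.1 (voom) were alternatives, with other scalings, filters, covariates, single runs and lungs left out. The procedure was checked on simulated counts.

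The members, the gene lists and the rule for named genes were chosen with earlier results of these data known. Named are Tgfbr2, the members, up to 4 tested genes per pathway list with the smallest p, and the 3 genes most like each member (prior count 2, mean of at least 1 CPM, no predicted-gene symbol). Bmp4, Sp5, Notum, Lef1, Ascl2, Wnt8a, Wnt8b, Nkx2-1, Tbx4 and the named markers were chosen after their values were seen.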

Additional observations from a re-analysis of the deposited data

How the results depend on the processing

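Rspo4 kept its direction and passed in 14 of 17 alternatives and Lgr5 in 14 of 18, with adjusted p of 0.000258 to 0.0910 and 4.82e-06 to 0.119; a filter on a mean of at least 1 CPM removes Rspo4, which then has no value. Lgr6 passed in 2 of 18, Rspo1 in 1 and Rspo2, Rspo3 and Lgr4 in 0. Over replicates 2 and 3 alone Rspo1 (0.44) and Lgr6 (-3.97) passed, and Rspo2 (0.19) and Rspo3 (0.043) turned positive. Rspo2 also turned positive without CKO replicate 1 (0.0014) and WT replicate 1 (0.035), and Rspo3 without the same WT lung (0.025). Lgr6 was -2.64 with limma-voom (adjusted p = 0.0538) and -1.76 with the no-feature read share of each lung in the fit (0.0529).

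Leaving out 1 lung at a time gave log2 fold changes of 1.55 to 2.06 for Rspo4, -2.99 to -1.78 for Lgr5, -3.83 to -1.16 for Lgr6, 0.16 to 0.37 for Rspo1, -0.35 to 0.03 for Rspo2, -0.53 to 0.02 for Rspo3 and 0.05 to 0.13 for Lgr4. It gave 162 to 1713 genes called higher and 90 to 1185 lower, against 1006 and 549 over all 6 lungs; the highest counts were without CKO replicate 1 and the lowest without WT replicate 2 (90 lower also without CKO replicate 2). Genes called lower numbered 884 with no filter on low counts, 984 with DESeq2 and 1051 over replicates 2 and 3 alone. The cause of these shifts was not tested.

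Replicate numbers are shared by the groups, and replicate 1 was the female lung in both. Same-numbered lungs deviated together only weakly (r = 0.102, 0.0887 and 0.0365). CKO replicates 1 and 2 correlated best with the WT lung of their own number, and CKO replicate 3 with WT replicate 2. These values do not settle whether the lungs were paired. With replicate 1 as a covariate, Lgr6 was -2.52 (edgeR adjusted p = 0.0891) and Lgr5 was -2.31 (adjusted p = 0.00821). With a replicate block 1087 genes were called higher and 693 lower, Lgr6 was -2.55 (adjusted p = 0.128), and no member's call changed. The lowest counts behind a member's value are those of Rspo4 in WT lungs, 11 to 25 per lung, and of Lgr5 in CKO replicates 2 and 3.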
